A study of Mus musculus with 12 samples.

Results

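The genes described here were 9 cathepsins (Ctsa, Ctsb, Ctsc, Ctsd, Ctsh, Ctsk, Ctsl, Ctss and Ctsz) and cystatin C (Cst3), chosen by symbol from 56953 genes of whole mouse spinal cord. All 10 passed the filter on low counts, which left 19278 genes for testing. The 12 libraries of messenger RNA formed 4 groups of 3 animals: Ddx20 cKO at 4 weeks, control at 4 weeks, Ddx20 cKO at 4.5 weeks and control at 4.5 weeks after tamoxifen. The cKO mice came from a cross of Ddx20 flox/flox mice with a Plp-CreER transgene, a tamoxifen-activated recombinase driven by a promoter of myelin-forming cells, so other cells of the cord should keep Ddx20. All groups are timed from tamoxifen in the labels, which give neither the alleles of the controls nor ages.

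Cathepsins are proteases that work mainly in the acid interior of endosomes and lysosomes. They are made as inactive precursors and activated there by cleavage. Microglia, the resident macrophages of the cord, use them to digest what they engulf, including myelin, and to process antigens. Cystatin C is a secreted inhibitor that binds the cysteine cathepsins tightly. It does not inhibit the aspartic protease Ctsd or the serine protease Ctsa.

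Library totals lay between 33104552 and 47677252 counts, with 23262 to 24974 genes detected. Levels are given as CPM, counts scaled to a common library size by trimmed mean of M values. A gene is said to have risen, fallen or changed only at an adjusted p below 0.05 in edgeR's quasi-likelihood test with Benjamini-Hochberg adjustment over the 19278 genes. Ddx20 itself had 10.2, 11.1 and 9.90 CPM in cKO cords, against 11, 9.78 and 11.1 CPM in controls at 4 weeks (exact 2-sided permutation p = 0.9, edgeR adjusted p = 0.84). At 4.5 weeks it had 12.4, 11.1 and 13.3 CPM in cKO cords, against 9.16, 10.6 and 9.71 CPM in controls (exact p = 0.1, the smallest that 3 against 3 libraries allow). The edgeR call there (0.33, adjusted p = 0.013) was lost without control library 1 or cKO library 3, and the level in whole cord did not check the labels. By Xist, cKO libraries 1 and 2 of 4 weeks came from females, cKO library 3 and the 3 controls of that time from males, and all 6 libraries of 4.5 weeks from females. All 8 markers each of mature oligodendrocytes, astrocytes and neurons were detected in every library. The oligodendrocyte markers summed to 13763 to 18752 CPM in cKO cords and 32202 to 34758 CPM in controls at 4 weeks, and to 10202 to 11139 CPM in cKO cords and 29396 to 29859 CPM in controls at 4.5 weeks. Neuron markers summed to 6454 to 7069 CPM in cKO cords and 7415 to 8638 CPM in controls at 4 weeks (3 of 8 fell), and to 2281 to 2433 CPM in cKO cords and 9471 to 9880 CPM in controls at 4.5 weeks (8 of 8 fell). Astrocyte markers summed to 2903 to 4657 CPM in cKO cords and 5265 to 5850 CPM in controls at 4 weeks, and to 4956 to 5414 CPM in cKO cords and 6101 to 6357 CPM in controls at 4.5 weeks, where 6 of 8 fell at each time. Median log2 fold changes at 4 and 4.5 weeks were -1.24 and -1.88 for oligodendrocyte markers and -0.28 and -1.90 for neuron markers. For astrocyte markers they were -1.05 and -0.58. Of the astrocyte markers, Aldh1l1 rose at both times and Gfap rose at 4.5 weeks. The part of these shifts in the results was not tested. Among the controls of 4.5 weeks, library 1 stood apart for markers of Schwann cells (244 CPM summed, against 7.21 and 7.50 CPM in the other two), sensory ganglion (240.3 against 96.5 and 110.4 CPM) and border macrophages (27.1 against 5.44 and 7.21 CPM), and library 2 for skeletal muscle markers (98.5 CPM, against 3.39 and 9.07 CPM). At 4 weeks the Schwann cell markers summed to 31.5, 46.3 and 5.52 CPM in cKO cords, against 67.8, 152 and 73.6 CPM in controls. The groups did not overlap, and of the 4 markers Pmp2 alone was called lower. The part of Schwann cell content in the results was not tested.

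At 4 weeks, 8 of the 10 genes were higher in cKO than in control cord, Ctsk was lower and Cst3 did not pass the test. Of all genes tested at that time, 20.1% rose and 17.2% fell. At 4.5 weeks, 9 genes rose, Cst3 among them, and Ctsk fell, while 33.3% of all genes rose and 32.6% fell. The median log2 fold change of the 10 genes was 1.33 at 4 weeks and 3.53 at 4.5 weeks, against 0.0072 and 0.021 over all genes tested. In all 8 genes that rose at 4 weeks the 3 cKO libraries lay above the 3 controls, as they did in 24.1% of all genes, and library 1 was the lowest of the 3 cKO libraries in each. At 4.5 weeks the cKO libraries lay above the controls in 9 of the 10, as in 36.8% of all genes. Ctsk lay below them at both times, as 23.1% of all genes did at 4 weeks and 35.6% at 4.5 weeks. In whole cord, more cells of a type and more RNA per cell cannot be told apart, and a higher share of one transcript lowers that of the rest.

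**Figure D1:**
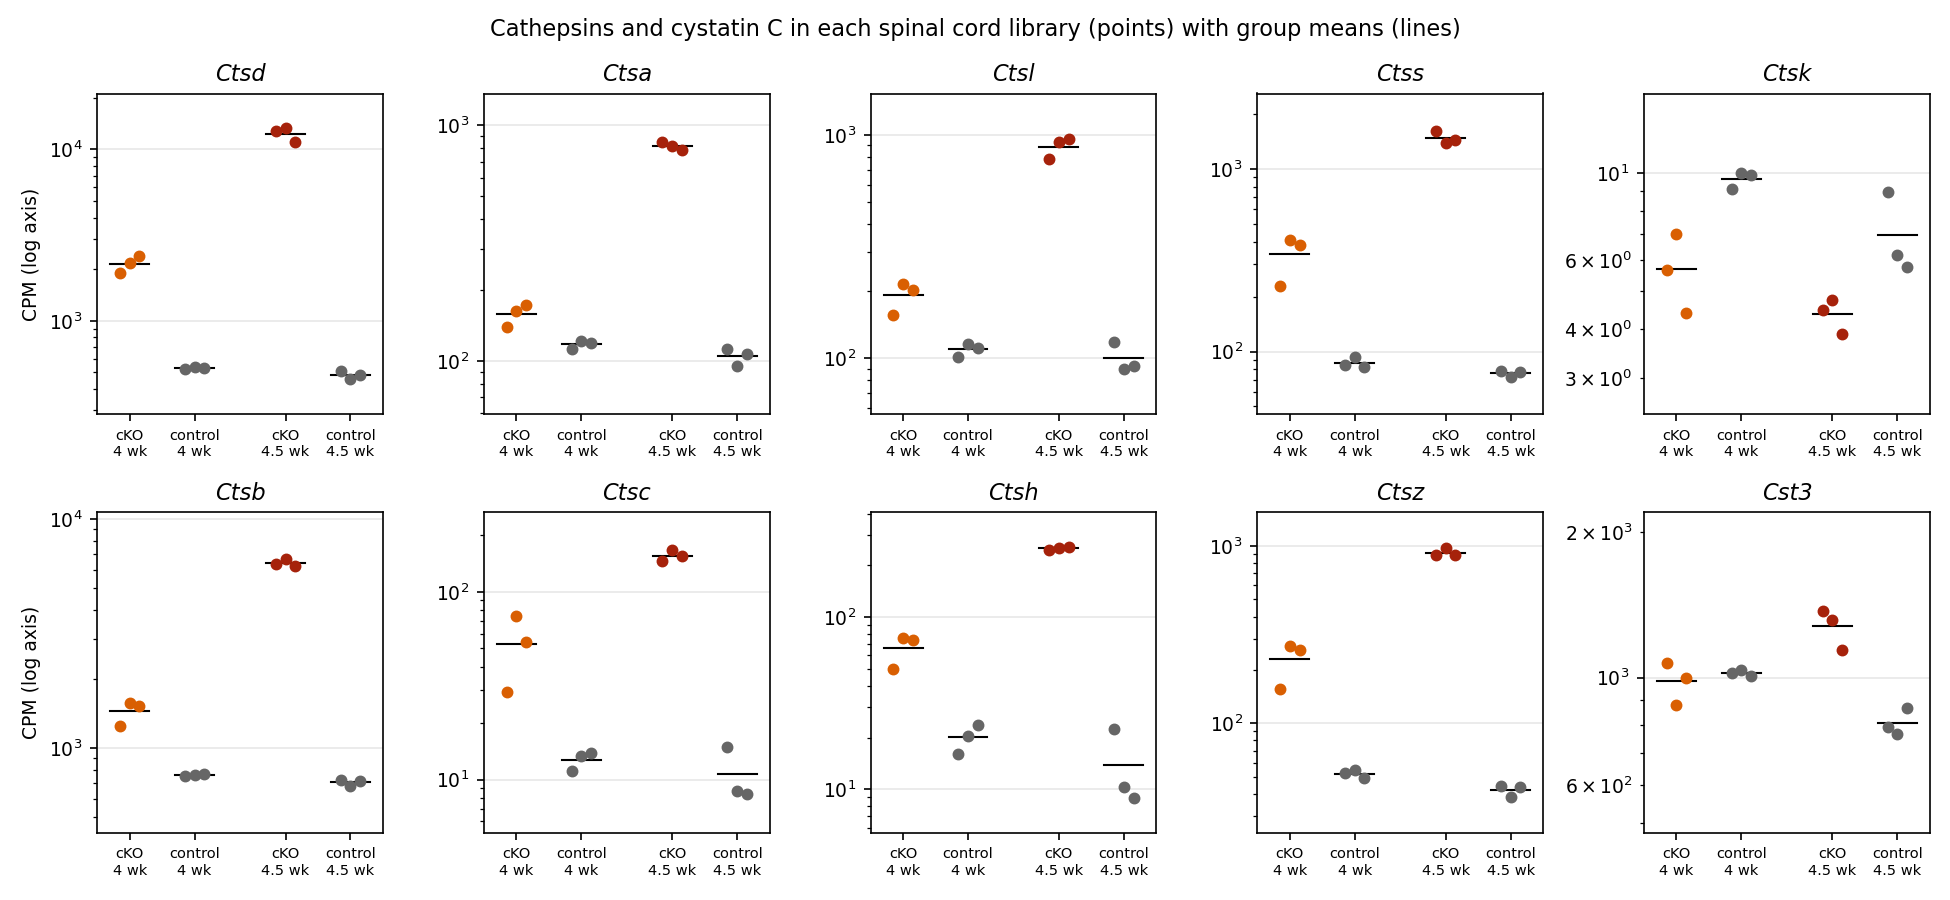
Level of each of the 10 genes (CPM, log axis, a separate scale per gene) in every library, with points for libraries and lines for group means of 3 libraries. At both times 8 cathepsins lie higher in cKO than in control cord, Ctsk lies lower, and Cst3 overlaps its controls at 4 weeks and lies above them at 4.5 weeks.

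Ctsd (ENSMUSG00000007891.17), the main aspartic protease of lysosomes, had the highest level per kilobase of the 9 cathepsins in all 4 groups. It had 1896, 2181 and 2381 CPM in cKO cords, against 520.5, 541 and 532 CPM in controls at 4 weeks. At 4.5 weeks it had 12773, 13241 and 11026 CPM in cKO cords, against 510.3, 456 and 481 CPM in controls. The groups did not overlap at either time, and every cKO library of 4.5 weeks exceeded every one of 4 weeks. The rise was 4.05-fold at 4 weeks (log2 fold change 2.02 ± 0.096 SE, edgeR adjusted p = 2.3e-08) and 25.6-fold at 4.5 weeks (4.68 ± 0.11 SE, adjusted p = 2.2e-11). Its transcript alone held 1.13% to 1.35% of all counts in cKO cords at 4.5 weeks, and 0.044% to 0.050% in controls.

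Ctsa (ENSMUSG00000017760.17) is a serine carboxypeptidase that also shields beta-galactosidase and neuraminidase from breakdown in the lysosome. It had 139, 164 and 173 CPM in cKO cords, against 113, 121 and 119 CPM in controls at 4 weeks, the smallest change among the 8 that rose (0.43 ± 0.084 SE, edgeR adjusted p = 0.0016). Later, at 4.5 weeks, it had 854, 819 and 787 CPM in cKO cords, against 113, 95 and 107 CPM in controls. That was a 7.81-fold rise (2.97 ± 0.089 SE, adjusted p = 1.0e-10), with no overlap between the groups.

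The cysteine endopeptidases differed among themselves in size and in direction. Ctsl (ENSMUSG00000021477.10), a general lysosomal endopeptidase, had 157, 216 and 203 CPM in cKO cords, against 101, 117 and 111 CPM in controls at 4 weeks. At the later time it had 779.6, 929 and 961 CPM in cKO cords, against 119, 90.0 and 92.5 CPM in controls. It rose 1.75-fold (0.81 ± 0.13 SE, edgeR adjusted p = 5.0e-04) and 8.86-fold (3.15 ± 0.14 SE, adjusted p = 1.6e-09), and no cKO library fell within the range of its controls.

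Ctss (ENSMUSG00000038642.11) stays active at neutral pH and cuts the invariant chain in antigen-presenting cells. It had 228, 409 and 385 CPM in cKO cords, against 84.2, 92.9 and 82.7 CPM in controls at 4 weeks. Ctss had 1620.3, 1384 and 1434 CPM in cKO cords, against 78.0, 72.5 and 77.0 CPM in controls at 4.5 weeks. Library 1 of the cKO cords was lowest at 4 weeks but still above all controls. The rises were 3.93-fold (1.98 ± 0.17 SE, edgeR adjusted p = 2.9e-06) and 19.5-fold (4.29 ± 0.18 SE, adjusted p = 1.1e-09).

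Ctsk (ENSMUSG00000028111.5), the collagen-cutting protease of osteoclasts, had the lowest level per kilobase of the 9 cathepsins in cKO cords and was the only gene of the 10 that fell. It had 5.65, 7.01 and 4.39 CPM in cKO cords, against 9.13, 9.999 and 9.90 CPM in controls at 4 weeks (-0.77 ± 0.19 SE, edgeR adjusted p = 0.0074). At 4.5 weeks it had 4.47, 4.74 and 3.87 CPM in cKO cords, against 8.94, 6.17 and 5.75 CPM in controls (-0.67 ± 0.19 SE, adjusted p = 0.0081). The cKO libraries lay below the controls at both times, but control library 1 of 4.5 weeks lay well above the other two. Without control libraries 1 and 2 of that time, which left 1 control library, the value was -0.41.

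Fibroblast markers were set beside Ctsk, because connective tissue cells also make it. The 5 fibroblast and meningeal markers summed to 245, 300.04 and 99.6 CPM in cKO cords, against 142, 200.2 and 253 CPM in controls at 4 weeks. At 4.5 weeks they summed to 210.4, 220.2 and 153 CPM in cKO cords, against 271, 96.6 and 59.8 CPM in controls. The groups overlapped at both times, whereas those of Ctsk did not. Within the cKO groups and the controls of 4.5 weeks, the libraries ranked in the same order for Ctsk and for the fibroblast sum, and the part of these cells in the fall was not tested. The 6 osteoclast markers summed to 10.4 to 13.7 CPM in cKO cords and 13.5 to 16.5 CPM in controls at 4 weeks, and to 33.2 to 39.7 CPM in cKO cords and 15.1 to 16.5 CPM in controls at 4.5 weeks. They did not move together: at 4.5 weeks Atp6v0d2 had 20.1 to 22.3 CPM in cKO cords and 0.022 to 0.078 CPM in controls, Acp5 had 8.69 to 13.9 CPM in cKO cords and 0.20 to 0.83 CPM in controls, and Mmp9 fell (-2.26, edgeR adjusted p = 4.7e-08). The 4 markers of bone-forming cells summed to 51.2 to 69.8 CPM in cKO cords and 2.96 to 3.97 CPM in controls at 4 weeks, and to 21.8 to 24.0 CPM in cKO cords and 3.69 to 5.52 CPM in controls at 4.5 weeks. These did not move together either: Bglap and Bglap2 rose at both times, and Sp7 fell at both. The part of either cell type in the fall of Ctsk was not tested.

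The 4 exopeptidases, which trim residues from the ends of proteins, all rose at both times. Ctsb (ENSMUSG00000021939.9), a carboxydipeptidase that also cuts within chains, had 1247, 1563 and 1523 CPM in cKO cords, against 753, 761 and 769 CPM in controls at 4 weeks. Ctsb then had 6339.9, 6699 and 6209 CPM in cKO cords, against 720.4, 681 and 719.6 CPM in controls at 4.5 weeks. The groups were far apart at both times, and it rose 1.90-fold (0.92 ± 0.081 SE, edgeR adjusted p = 3.7e-06) and 9.07-fold (3.18 ± 0.088 SE, adjusted p = 5.5e-11).

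Ctsc (ENSMUSG00000030560.18), a dipeptidyl peptidase that activates the serine proteases of granules, was scarce in control cord. It had 29.3, 74.7 and 53.8 CPM in cKO cords, against 11.2, 13.4 and 13.8 CPM in controls at 4 weeks. In the later groups it had 145, 167 and 156 CPM in cKO cords, against 14.9, 8.66 and 8.33 CPM in controls at 4.5 weeks. It varied most among the cKO libraries of 4 weeks relative to its mean, where the mean was 52.6 ± 22.7 CPM (SD, n = 3). The rises were 4.13-fold (2.05 ± 0.29 SE, edgeR adjusted p = 1.6e-04) and 14.7-fold (3.87 ± 0.30 SE, adjusted p = 1.7e-07).

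Ctsh (ENSMUSG00000032359.15), an aminopeptidase, had 50.4, 76.2 and 73.6 CPM in cKO cords, against 16.1, 20.5 and 23.8 CPM in controls at 4 weeks. Ctsh had 247, 253 and 256 CPM in cKO cords, against 22.3, 10.3 and 8.95 CPM in controls at 4.5 weeks. As for every other cathepsin, control library 1 of 4.5 weeks was the highest of its group. That library also held more Schwann cell and border macrophage transcripts. The rises were 3.32-fold (1.73 ± 0.27 SE, edgeR adjusted p = 3.8e-04) and 18.2-fold (4.19 ± 0.30 SE, adjusted p = 6.9e-08). Without control libraries 1 and 2 of 4.5 weeks, which left 1 control library of that time, the later log2 value was 4.80.

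Ctsz (ENSMUSG00000016256.11), a carboxypeptidase that removes single residues, had 155, 273 and 259 CPM in cKO cords, against 52.6, 54.3 and 49.0 CPM in controls at 4 weeks. Levels of 884, 972 and 887 CPM in cKO cords stood against 44.5, 38.6 and 43.6 CPM in controls at 4.5 weeks. With rises of 4.41-fold (2.14 ± 0.16 SE, edgeR adjusted p = 1.3e-06) and 21.6-fold (4.44 ± 0.18 SE, adjusted p = 7.7e-10) it was among the genes with the highest fold changes at both times. The 95% intervals of Ctsz, Ctsc, Ctsd, Ctss and Ctsh overlapped at both times, and their order was not tested.

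Cst3 (ENSMUSG00000027447.7), the inhibitor, changed less than the 8 rising cathepsins. It had 1072, 877 and 998 CPM in cKO cords, against 1022, 1038 and 1007 CPM in controls at 4 weeks. The cKO libraries lay on both sides of the controls, and the log2 fold change was -0.06 (95% interval -0.25 to 0.13, edgeR adjusted p = 0.65). Later it had 1376, 1315 and 1141 CPM in cKO cords, against 791, 765 and 868 CPM in controls at 4.5 weeks, a 1.58-fold rise without overlap (0.66 ± 0.088 SE, adjusted p = 2.2e-05). The upper end of the 95% interval at 4.5 weeks, 0.85, lay below the lower end for each of the 8 cathepsins that rose, the nearest being 2.77 for Ctsa.

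**Figure D2:**
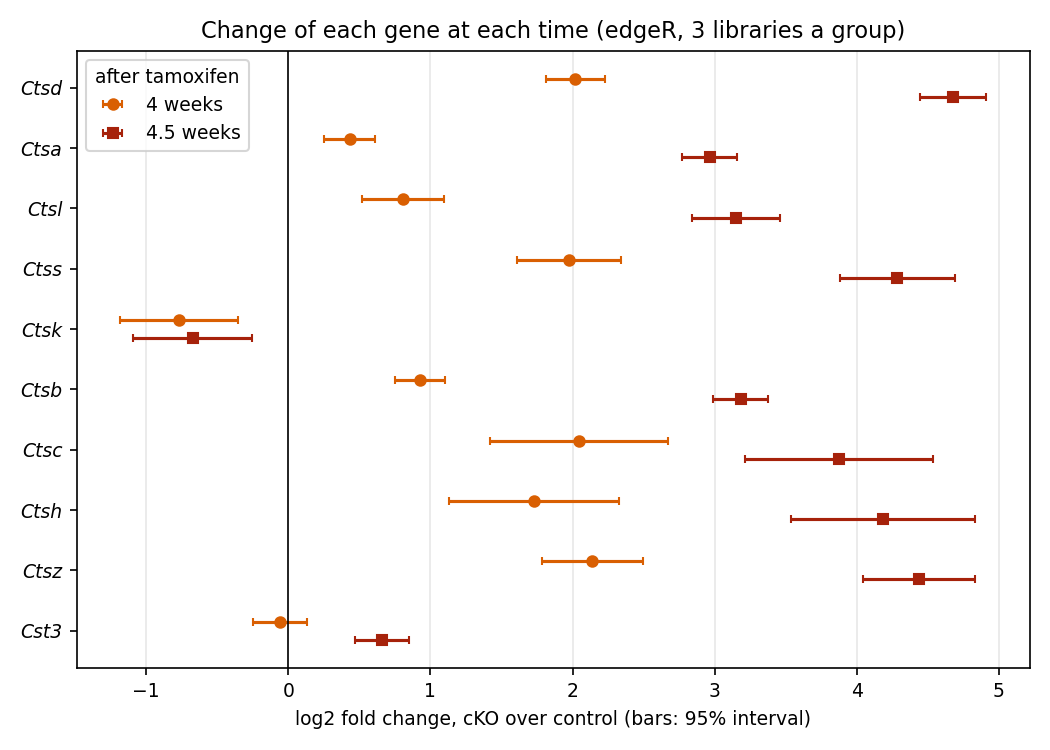
Log2 fold change of each gene, cKO over control, at 4 weeks (circles) and 4.5 weeks (squares), with 95% intervals from edgeR. The 8 cathepsins that rose lie between 0.43 and 2.14 at 4 weeks and between 2.97 and 4.68 at 4.5 weeks, Cst3 lies near 0 and then at 0.66, and Ctsk lies below 0 at both times.

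The effect of the cKO was larger at 4.5 than at 4 weeks in 9 of the 10 genes by a test of the difference itself, a direction found in 18.7% of all genes, with 21.9% in the other. Ctsd gained 2.66 on the log2 scale between the times (95% interval 2.37 to 2.95, edgeR adjusted p = 7.7e-08). The other 7 rising cathepsins gained between 1.83 (Ctsc, 95% interval 0.96 to 2.70, adjusted p = 0.0028) and 2.53 (Ctsa), and Cst3 gained 0.72 (adjusted p = 5.2e-04). The intervals of the 8 rising cathepsins overlapped, although their effects at 4 weeks ran from 0.43 to 2.14. Ctsk was not called (0.09, 95% interval -0.50 to 0.68, adjusted p = 0.82).

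The 2 control groups were also compared, since they differ in time after tamoxifen and, by Xist, in sex, which cannot be told apart. All 10 genes had lower values in controls at 4.5 weeks than in controls at 4 weeks, by 0.11 (Ctsb) to 0.54 (Ctsh) on the log2 scale. Cst3 alone passed the test (-0.34 ± 0.088 SE, edgeR adjusted p = 0.021), where 7.21% of all genes fell and 9.53% rose. That call was lost in 7 of 20 alternatives: without any 1 of control libraries 1 and 2 of 4 weeks and 1 and 2 of 4.5 weeks, without the last 2 together, with a sex term and with a replicate block. With the sex term or the block, this contrast no longer compared the plain means of the control groups. Falls of Ctsh, Ctsz and Ctsk between the controls were each called under some of the alternatives. The largest shift, that of Ctsh, was small beside the cKO effects on the rising cathepsins at 4.5 weeks. Shifts of Cst3 (-0.34) and Ctsk (-0.48) were nearer in size to the cKO effects on the same genes at 4.5 weeks, 0.66 and -0.67. For Ctsa the shift was -0.16, and the cKO effect at 4 weeks was 0.43.

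Because the genes changed by different amounts, the makeup of the cathepsin transcripts shifted. The 10 genes together held 0.515%, 0.616% and 0.633% of all counts in cKO cords, against 0.265%, 0.272% and 0.266% in controls at 4 weeks. At 4.5 weeks they held 2.50%, 2.62% and 2.33% in cKO cords, against 0.237%, 0.214% and 0.226% in controls. Ctsd supplied, without correction for length, 48.5%, 43.9% and 47.1% of the summed cathepsin CPM in cKO cords, against 31.4%, 31.2% and 31.1% in controls at 4 weeks. At 4.5 weeks its share was 54.0%, 54.1% and 50.8% in cKO cords, against 31.3%, 31.3% and 31.2% in controls. The 6 control libraries thus spanned 31.1% to 31.4%, and every cKO library lay above them.

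The summed CPM of the 9 cathepsins was set against that of Cst3 within each library. The ratio was 3.64, 5.66 and 5.06 in cKO cords, against 1.62, 1.67 and 1.70 in controls at 4 weeks. In the later groups it was 17.2, 18.6 and 19.0 in cKO cords, against 2.06, 1.91 and 1.78 in controls at 4.5 weeks. The ratio counts transcripts only, and includes Ctsd and Ctsa, which the inhibitor does not bind.

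**Figure D3:**
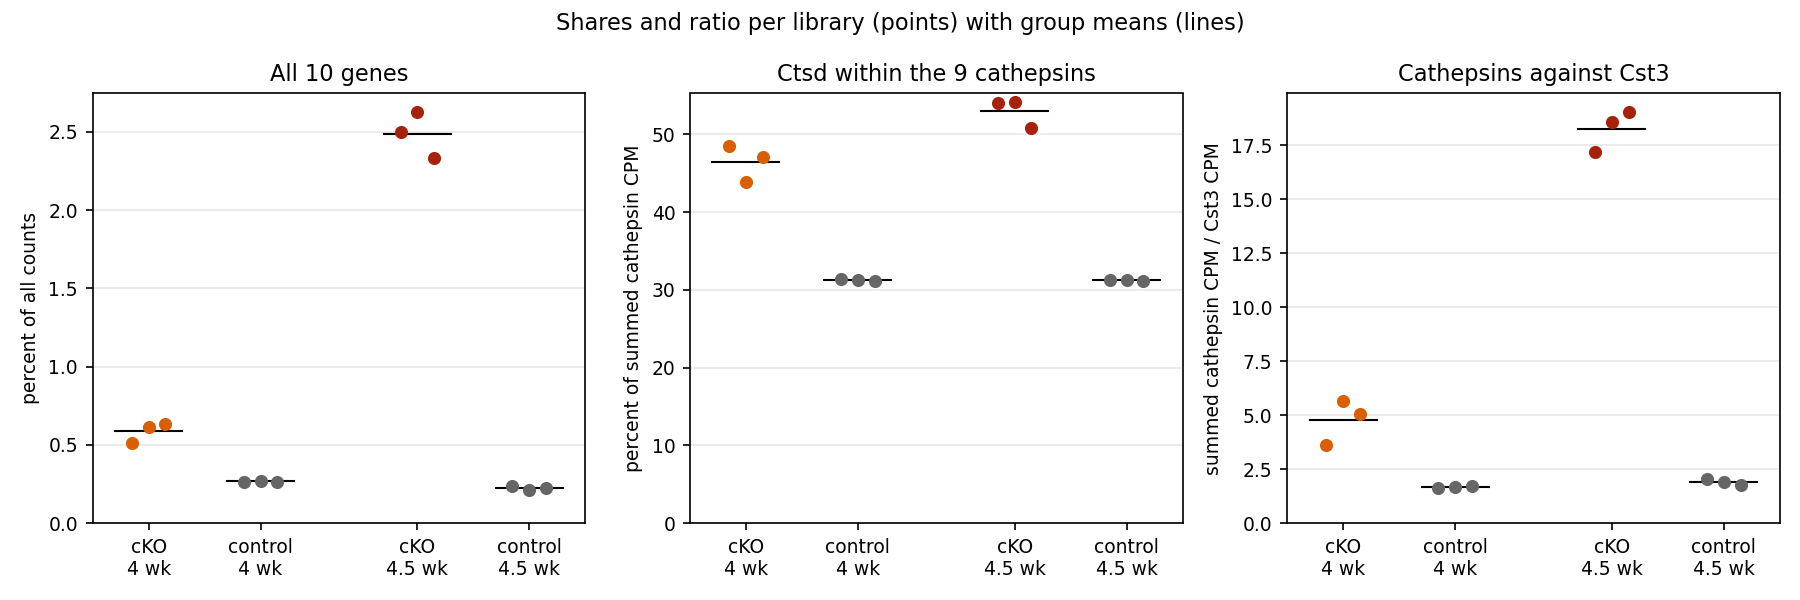
Share of all counts held by the 10 genes (percent), share of the summed cathepsin CPM held by Ctsd (percent) and ratio of summed cathepsin CPM to Cst3 CPM, in every library, with lines for group means. Ctsd holds 43.9% to 54.1% of the cathepsin CPM in the 6 cKO libraries and 31.1% to 31.4% in the 6 controls.

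Levels of different genes were compared as CPM per kilobase of the longest protein-coding transcript. In cKO cords at 4 weeks Cst3 (1143 CPM per kilobase) and Ctsd (1012) overlapped, as did Ctsb (305) and Ctss (251). In cKO cords at 4.5 weeks Ctsd came first with 5805 CPM per kilobase, followed by Cst3 (1485) and Ctsb (1353), which overlapped, and Ctss (1092). In controls at both times the order began with Cst3, Ctsd, Ctsb and Ctss, with no overlap between neighbours. Cst3 had 1189 CPM per kilobase and Ctsd 249.7 in controls at 4 weeks. These first 4 places were the same in each group with the shortest transcripts, while the places of Ctsl, Ctsa, Ctsz and Ctsh depended on the transcript used.

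Microglial and other myeloid markers moved with the cathepsins. The 12 markers of homeostatic microglia summed to 868, 1217 and 1185 CPM in cKO cords, against 472, 475 and 465 CPM in controls at 4 weeks. At 4.5 weeks they summed to 4324, 4248 and 3884 CPM in cKO cords, against 462, 451 and 460.0 CPM in controls. The 9 pan-myeloid markers, which include the lysosomal protein Cd68 and the lysozyme Lyz2, summed to 392, 622 and 589 CPM in cKO cords and 120 to 134 CPM in controls at 4 weeks, and to 3699 to 3954 CPM in cKO cords and 94.3 to 126 CPM in controls at 4.5 weeks. At 4 weeks 10 of the 12 homeostatic markers rose and 1 fell, at 4.5 weeks 11 rose, and all 9 pan-myeloid markers rose at both times. Library 1 of the cKO cords at 4 weeks was the lowest of its group for both lists, as it was for the 8 rising cathepsins.

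Each gene was then expressed relative to the mean log2 CPM of these markers in the same library. Relative to the homeostatic markers, Ctsd was higher in cKO than in control cord by 1.04 at 4 weeks and 2.17 at 4.5 weeks, without overlap. Ctsz (1.12 and 1.93), Ctss (0.96 and 1.78), Ctsc (0.97 and 1.41) and Ctsh (0.75 and 1.79) lay above their controls in the same way. Ctsb (-0.06, overlapping), Ctsl (-0.18) and Ctsa (-0.55) did not exceed these markers at 4 weeks, but did at 4.5 weeks, by 0.67, 0.65 and 0.46. Relative to the pan-myeloid markers all 10 genes had values below 0 at both times, from -0.11 (Ctsz at 4 weeks) downwards. Ctsd came close to those markers, at -0.19 with overlapping groups at 4 weeks and -0.29 at 4.5 weeks. Cst3 lagged both lists, by 1.03 and 1.85 behind the homeostatic and by 2.27 and 4.30 behind the pan-myeloid markers. The part of microglial number in the cathepsin changes was not tested.

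**Figure D4:**
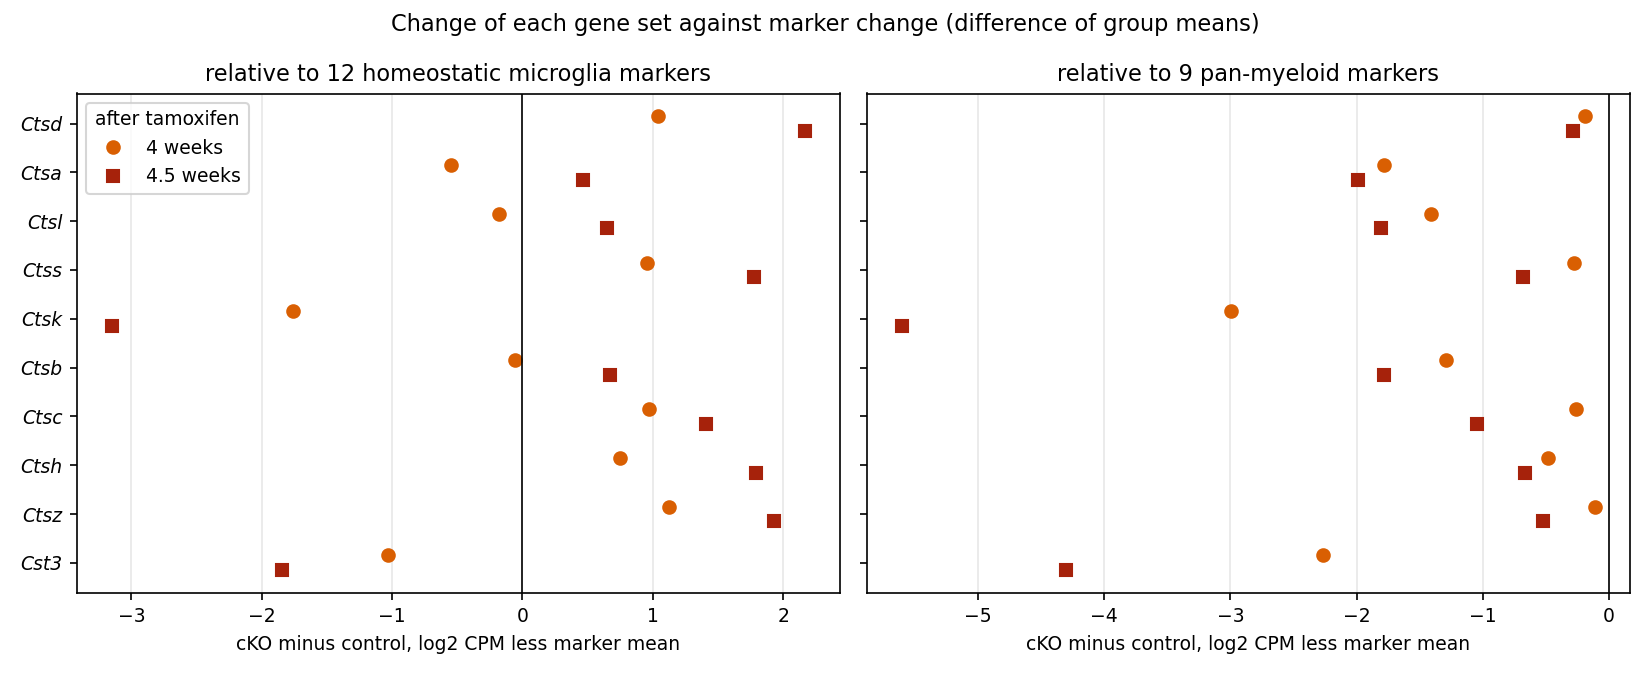
Difference between cKO and control means of log2 CPM less the marker mean of the same library, at 4 weeks (circles) and 4.5 weeks (squares), for 12 homeostatic microglia markers (left) and 9 pan-myeloid markers (right). Ctsd, Ctss, Ctsc, Ctsh and Ctsz exceed the homeostatic markers at both times, and all 10 genes lie below 0 against the pan-myeloid markers.

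Other cells that use these proteases were measured the same way. The 7 border macrophage markers summed to 7.86 to 29.5 CPM in cKO cords and 13.6 to 35.0 CPM in controls at 4 weeks. At 4.5 weeks they summed to 49.4 to 59.1 CPM in cKO cords and 5.44 to 27.1 CPM in controls. Of these markers Pf4, F13a1 and Ms4a7 rose, and the other 4 were not called. The 7 neutrophil markers summed to at most 13.5 CPM in any library. The 8 T and NK cell markers summed to at most 2.15 CPM in any library, 1 to 4 of them at 0 in each cKO library. As cKO and sex were mixed at 4 weeks, the male cKO library was set beside the 3 male controls: its log2 ratio to their mean was 2.16 for Ctsd, 2.15 for Ctss, 2.32 for Ctsz and -1.14 for Ctsk, which is 1 library and no test.

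Promoters were examined for the core element of the lysosomal regulators Tfeb and Tfe3, CACGTG (its own reverse complement), and for a core element of interferon regulatory factors, 2 copies of GAAA with 2 bases between them, on both strands. RefSeq promoters of build GRCm38.p6 matched 8 of the 10 genes, with 9 windows of the 250 bases before the start site. Of 32851 promoters of that length, 6.02% held CACGTG and 2.98% the paired GAAA element. CACGTG stood in windows of Ctsd (245 and 98 bases before the start), Ctsa (12 bases before) and Ctsl (236 bases before), which are shown with the element in capitals because their elements sit at different distances. The windows of Ctsc and Ctsz, which also rose, and of Cst3 held neither element, and Ctsb and Ctsh were not matched. The windows are chr7:142387828-142388077 (minus strand) for Ctsd, chr2:164833523-164833772 (plus strand) for Ctsa, whose other window held neither element, and chr13:64370521-64370770 (minus strand) for Ctsl.
Ctsd: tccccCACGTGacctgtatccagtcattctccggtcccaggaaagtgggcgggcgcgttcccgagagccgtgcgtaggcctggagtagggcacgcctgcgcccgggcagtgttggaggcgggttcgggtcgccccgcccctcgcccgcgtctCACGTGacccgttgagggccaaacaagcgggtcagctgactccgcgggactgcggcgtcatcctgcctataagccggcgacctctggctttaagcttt
Ctsa: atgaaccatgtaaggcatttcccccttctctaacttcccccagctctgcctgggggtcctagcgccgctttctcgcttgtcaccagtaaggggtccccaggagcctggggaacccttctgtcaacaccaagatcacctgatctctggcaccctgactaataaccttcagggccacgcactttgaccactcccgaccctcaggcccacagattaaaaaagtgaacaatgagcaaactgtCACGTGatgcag
Ctsl: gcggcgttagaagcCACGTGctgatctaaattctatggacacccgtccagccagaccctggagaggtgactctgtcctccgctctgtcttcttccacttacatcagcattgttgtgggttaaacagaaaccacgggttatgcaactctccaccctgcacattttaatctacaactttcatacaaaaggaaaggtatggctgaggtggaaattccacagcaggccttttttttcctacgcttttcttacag

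Ctss and Ctsk are neighbours on chromosome 3 with 1 gene and 0 protein-coding genes between them, and moved in opposite directions, so both windows are shown. The Ctss window, chr3:95526536-95526785 (plus strand), held the paired GAAA element 21 bases before the start, in capitals. The Ctsk window, chr3:95498960-95499209 (plus strand), held neither element. A match is a description of letters, not of binding.
Ctss: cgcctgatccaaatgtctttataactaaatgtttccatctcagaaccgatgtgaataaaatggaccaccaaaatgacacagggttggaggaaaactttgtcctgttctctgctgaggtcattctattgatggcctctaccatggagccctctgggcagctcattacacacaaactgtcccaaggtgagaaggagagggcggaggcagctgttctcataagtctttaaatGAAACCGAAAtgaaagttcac
Ctsk: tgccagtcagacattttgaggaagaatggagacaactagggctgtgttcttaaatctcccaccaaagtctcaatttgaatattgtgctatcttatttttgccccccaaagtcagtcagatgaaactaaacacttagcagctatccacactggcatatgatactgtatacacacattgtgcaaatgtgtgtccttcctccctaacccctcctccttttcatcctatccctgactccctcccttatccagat

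Other genes of the cathepsin system were counted by list. Beside these counts, 20.1% of all genes tested rose and 17.2% fell at 4 weeks, and 33.3% rose and 32.6% fell at 4.5 weeks. Of 5 other cathepsins, 3 were tested. Ctse, an aspartic protease of endosomes, had 0.43, 0.73 and 0.78 CPM in cKO cords and 0.051 to 0.12 CPM in controls at 4 weeks, and 8.52, 7.61 and 5.75 CPM in cKO cords and 0.052 to 0.11 CPM in controls at 4.5 weeks. It rose at both times (2.96 and 6.44, edgeR adjusted p = 8.6e-05 and 6.9e-09), with no overlap between the groups. Ctso, a cysteine cathepsin, fell at 4 weeks (-0.48) and was higher at 4.5 weeks (0.28), a call lost when any of 4 libraries of that time was left out, controls 1 and 2 and cKO 2 and 3. Ctsf rose at 4.5 weeks (0.35, adjusted p = 5.0e-04) and was at 0.15 at 4 weeks (adjusted p = 0.10). The count that rose at 4 weeks was 2 in place of 1 when control 3, cKO 1 or cKO 2 of 4 weeks was left out, or any control or cKO 2 of 4.5 weeks. The list's median was 0.15 at 4 weeks and 0.35 at 4.5 weeks.

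Of 9 other inhibitors, 5 were tested, and 3 rose at 4 weeks and 4 at 4.5 weeks, with medians of 0.81 and 3.67. Cst7, cystatin F, an inhibitor that enters lysosomes and acts on Ctsc among others, had 8.26, 24.4 and 22.1 CPM in cKO cords and 0.17 to 0.26 CPM in controls at 4 weeks. Cst7 then had 81.2, 77.9 and 65.4 CPM in cKO cords and 0.052 to 0.13 CPM in controls at 4.5 weeks. It was near absent from control cord and well above it in every cKO library (edgeR adjusted p = 7.4e-07 and 4.7e-09). Cstb, an inhibitor of the cytosol, rose by 0.81 and 1.59, and Ctla2b, similar in sequence to cathepsin propeptides, by 1.76 and 6.24. Cst6 was the exception, with 2.09, 2.11 and 2.13 CPM in cKO cords, against 13.6, 3.97 and 3.76 CPM in controls at 4.5 weeks (-1.75, adjusted p = 0.0025). Without control library 1 the value was -0.88 and still called (adjusted p = 0.0025).

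Of 11 genes that sort or activate cathepsins, 3 rose and 3 fell at 4 weeks, and 8 rose and 3 fell at 4.5 weeks, with medians of 0.03 and 0.52. Grn, whose product progranulin travels to lysosomes and is needed for their enzymes, had 145, 301 and 261 CPM in cKO cords and 53.4 to 58.6 CPM in controls at 4 weeks. Grn had 1615, 1712 and 1683 CPM in cKO cords and 44.2 to 45.9 CPM in controls at 4.5 weeks (2.09 and 5.21, edgeR adjusted p = 5.8e-06 and 1.0e-09). Lgmn, the asparagine-specific protease that matures cysteine cathepsins, rose by 0.73 and 2.30. Psap, the precursor that Ctsd cuts into saposins, was at 0.03 at 4 weeks (adjusted p = 0.71) and rose by 1.37 at 4.5 weeks. Sort1, a sorting receptor, fell at both times (-0.53 and -1.04, adjusted p = 9.7e-04 and 7.6e-07), and the adaptor subunit Ap1g1 fell at 4.5 weeks (-0.26). Vps35, of the retromer, was called lower at 4.5 weeks (-0.14), a call lost when any of the 6 libraries of that time or cKO library 2 of 4 weeks was left out. Gnptab and Gnptg, which add the sorting tag mannose 6-phosphate, fell at 4 weeks (-0.39 and -0.26) and were called higher at 4.5 weeks (0.19 and 0.17), where each call was lost without control library 2 or cKO library 2, among others. The count that fell at 4 weeks was 5 without cKO library 1 of that time.

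Of 8 lysosomal gene regulators, 2 rose and 2 fell at 4 weeks, with a median of 0.012, and 7 rose and 1 fell at 4.5 weeks, with a median of 0.92. Fnip2, a partner of folliculin, had 112, 108 and 107 CPM in cKO cords and 15.5 to 16.8 CPM in controls at 4.5 weeks (2.75, edgeR adjusted p = 3.9e-11). Its relative Fnip1 was at 0.17 at 4 weeks (adjusted p = 0.059) and rose by 0.92 at 4.5 weeks. Tfe3 rose by 0.35 and 0.93. Mitf fell at 4 weeks (-0.27) and rose at 4.5 weeks (1.06). Tfeb was at -0.15 at 4 weeks (adjusted p = 0.20) and rose by 0.56 at 4.5 weeks. Tfec, a relative of Tfeb, had 1.74, 2.68 and 3.62 CPM in cKO cords and at most 0.025 CPM in controls at 4.5 weeks (adjusted p = 2.0e-05). Mcoln1, a lysosomal calcium channel, fell by 0.38 and 0.18. The later fall of Mcoln1 was lost when any of control libraries 2 and 3 and cKO libraries 2 and 3 of that time was left out. The fall of Mitf was lost when any of the 3 controls or cKO library 3 of 4 weeks was left out.

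The 3 lysosomal enzymes that associate with Ctsa were Neu1, Glb1 and Galns, of which 2 rose at 4 weeks and 3 at 4.5 weeks, with medians of 0.29 and 2.16. Galns, a sulfatase, rose by 0.70 and 3.04 (edgeR adjusted p = 0.0012 and 1.3e-09). Glb1, beta-galactosidase, rose by 0.29 and 2.16, the first of which was lost when any of 4 libraries of 4 weeks was left out, controls 1 and 2 and cKO 2 and 3.

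Of 7 class II antigen presentation genes that Ctss and Ctsl serve, 3 rose at 4 weeks and 5 at 4.5 weeks, with medians of 1.02 and 2.01. The later count was 3 without control library 2 or without cKO library 2 of 4.5 weeks, and their summed CPM in the controls of that time was 53.3, 14.1 and 13. H2-DMa and H2-DMb1, the chains of the peptide exchange factor, rose by 1.02 and 1.33 at 4 weeks and by 2.05 and 3.18 at 4.5 weeks. Of 7 granule proteases that Ctsc activates, Prtn3 alone was tested and was not called (0.38 and 0.11, adjusted p = 0.28 and 0.74), and the 7 together summed to at most 1.43 CPM in any library. With control libraries 1 and 2 of 4.5 weeks left out, 1 of the 7 was called higher at 4 weeks.

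**Figure D5:**
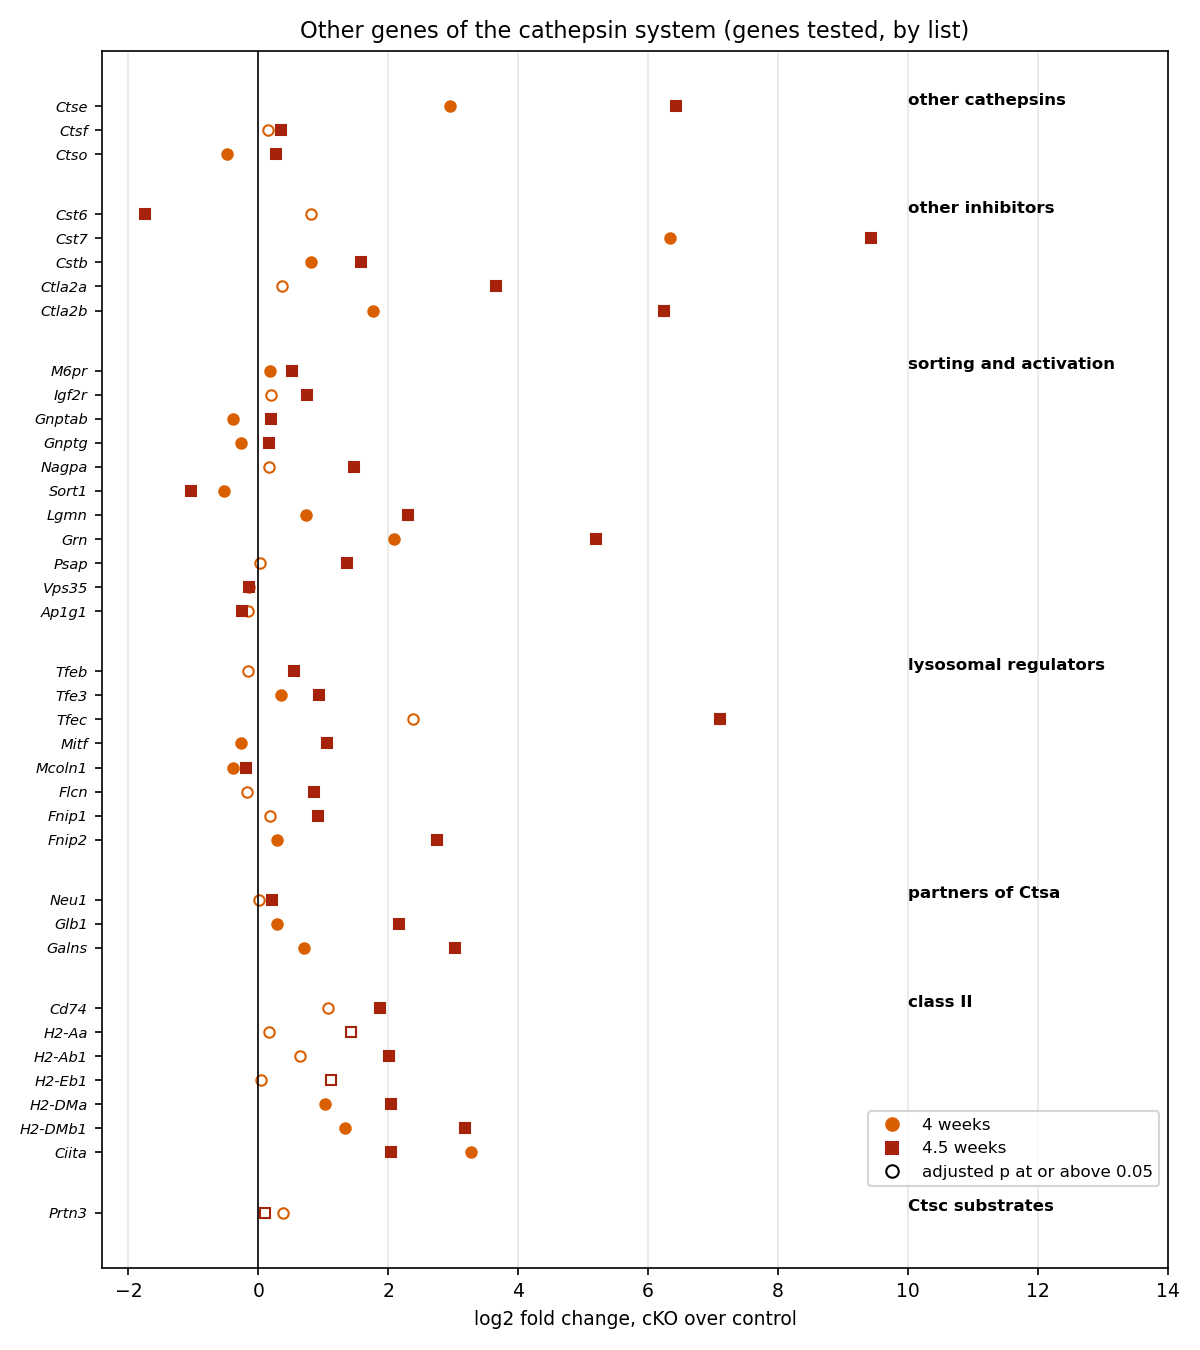
Log2 fold change, cKO over control, of the tested genes of each list at 4 weeks (circles) and 4.5 weeks (squares), filled where the edgeR adjusted p was below 0.05. Cst7, Tfec, Ctse, Ctla2b and Grn lie far to the right at 4.5 weeks, and Cst6 and Sort1 lie to the left.

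Genes with the pattern most like 4 of the 10 were found by Pearson's r of log2 CPM over the 12 libraries among the 13020 tested genes whose mean log2 CPM was 1 or more. These libraries fall into 4 groups, so r mostly reflects group means and is given without a p. Nearest to Ctsd were Fam46c, Arhgap25 and Mpeg1 (r = 0.999, 0.999 and 0.998), and nearest to Ctss were Matn4, Vav1 and Serpina3n (r = 0.999, 0.999 and 0.998). Nearest to Ctsk were Plac9, Gsn and Acta2 (r = 0.953, 0.950 and 0.925), and nearest to Cst3 were Ak7, Rnpepl1 and Zc3h11a (r = 0.964, 0.962 and 0.956). Among the 10 genes, r between Ctss and Ctsz was 0.998, and r between Ctsk and Cst3 was -0.45.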

How the data were processed

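The authors deposited estimated counts per gene, in a separate table for 4 and for 4.5 weeks. Per the submitters' processing notes they used STAR and RSEM with build mm39; versions, parameters and the annotation release are not given in the sources used here. Of the deposited estimated counts, 3.25% to 3.81% per library were not whole numbers. Per the labels' protocols, libraries were made with a TruSeq RNA v2 kit, which does not mark strand, from independent animals. Each column was tied to its library by its table's time and by the genotype and number it is named for.

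The estimated counts were rounded and fitted in R 4.3.3 with edgeR 4.0.16: edgeR's default filter on low counts over the 4 groups left 19278 of 56953 genes, trimmed mean of M values scaled the libraries, and 1 model gave each group its own mean over all 12 libraries. The contrasts were cKO minus control at each time, their difference, and control at 4.5 minus control at 4 weeks, each by the quasi-likelihood test with Benjamini-Hochberg adjustment over all tested genes. Intervals are 95%. Correlations used log2 CPM with a prior count of 2. The fit was tested on simulated data. Ddx20 was compared by an exact permutation test.

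The genes and lists were chosen with earlier results of these data known. Named in the text are all 10 genes, in each list the called genes with the 2 smallest p at either time and exceptions in direction, and the 3 genes nearest to each of Ctsd, Ctss, Ctsk and Cst3, provisional symbols left out. Cstb, Lgmn, Tfeb, Tfec, Prtn3, Atp6v0d2, Acp5 and Mmp9 were named outside that rule after their values were seen. Transcript lengths came from GENCODE M21 (lengths only), and promoters from RefSeq on GRCm38.p6, not on the build of the counts, so positions of genes in mm39 are not given. Alternatives were size factors of DESeq2 1.42.0, no filter, at least 1 CPM in 3 libraries, the DESeq2 Wald test, limma-voom (limma 3.58.1), a replicate block, each time fitted alone, a sex term, 2 control libraries left out together, and each library left out.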

Additional observations from a re-analysis of the deposited data

Results flagged for a closer look

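In 9 of the 10 genes a test of the difference between the times passed the threshold, so that the effect of the cKO at 4.5 weeks exceeded that at 4 weeks. The differences, 4.5 weeks minus 4 weeks on the log2 scale, were 2.66 for Ctsd, 2.53 for Ctsa, 2.46 for Ctsh, 2.34 for Ctsl, 2.31 for Ctss, 2.30 for Ctsz, 2.26 for Ctsb, 1.83 for Ctsc and 0.72 for Cst3. The adjusted p from edgeR's quasi-likelihood test ran from 7.6e-08 for Ctsa to 0.0028 for Ctsc. The groups held 3 libraries each, too few for a search for single outlying libraries.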

How the results depend on the processing

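Over 21 alternatives the 10 genes gave 820 values in the 4 contrasts, of which 794 kept their direction and their side of the threshold, 8 lost a call, 4 gained one and 14 turned in direction. The calls of the 8 rising cathepsins, at each time and for the difference between the times, held in every alternative run. For Ctsd the log2 fold change ran from 1.94 to 2.16 at 4 weeks and from 4.62 to 4.75 at 4.5 weeks.

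The numbers in the titles did not pair the libraries (r between same-numbered deviations -0.16 to 0.057), and a replicate block left 8 genes higher and 1 lower at 4 weeks and 9 higher and 1 lower at 4.5 weeks. Between the control groups the block gave 0 of the 10 genes lower and 1 gene called of all, and turned Ctsd (0.030), Ctsa (0.035), Ctsl (0.10), Ctss (0.17), Ctsb (0.0063), Ctsc (0.39) and Ctsh (0.12). The block took replicate 1 of each time as its base. This contrast therefore compared fitted levels of replicate 1, not group means, and cannot show whether the control means differ. A sex term gave 0 and 0 there, turned Ctsd (0.086), Ctsa (0.024), Ctss (0.081) and Ctsb (0.0099), and took the genes called at 4 weeks to 4548, against 7179. By Xist, all controls of 4 weeks were male and all libraries of 4.5 weeks female. The sex term therefore rested on the cKO libraries of 4 weeks alone, 2 female and 1 male. With control libraries 1 and 2 of 4.5 weeks left out, 0 of the 10 genes were lower at 4.5 weeks and 390 genes were called between the control groups, against 3227. With each library left out in turn, the genes called between the control groups ran from 1313 to 3773, against 3227. In these fits 0 to 2 of the 10 genes were lower between the control groups. Single libraries also turned values that were not called: over these fits Cst3 at 4 weeks ran from -0.14 to 0.017, the difference between the times for Ctsk from -0.066 to 0.31, and Ddx20 at 4 weeks from -0.088 to 0.0014. Apart from the coding of the block and of the sex term, the cause of these changes was not tested. The falls of Ctsk were called without any single library. The later one shrank to -0.41 when controls 1 and 2 of 4.5 weeks were left out together, which left 1 control library.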
